A study of Homo sapiens with 14 samples.

Results

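The MAP kinase phosphatases and the Sprouty proteins are negative feedback regulators of MAP kinase signalling, and 10 of their genes were followed here in cells that carry n-Myc: DUSP1, DUSP4, DUSP5, DUSP6, DUSP7, DUSP10, DUSP14, DUSP16, SPRY2 and SPRY4. They were matched by symbol and make up 10 of the 61533 genes counted. The list was drawn up with results of these libraries in view, among them the lenalidomide response of DUSP10 in both lines, so the lenalidomide values of the 10 genes are given as a description and no test of them is used. The rule behind the list names no difference between the lines, and that difference was tested in a fit of all genes.

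Polyadenylated RNA had been sequenced from SH-EP cells, an established line from a human neuroblastoma, of the substrate-adherent, mesenchymal type. The 4 groups were the n-Myc SPARK-ON line with lenalidomide (3 libraries) or with DMSO, its solvent (3 libraries), and the n-Myc control line, which has no SPARK-ON, with lenalidomide (2 libraries) or with DMSO (3 libraries). Per the series' description, the SPARK-ON line is 1 clone that holds n-Myc at a level under the phase separation threshold, lenalidomide drives n-Myc into phase separation without altering its amount, and the control line shows what the compound does by itself. Whether the control line is also 1 clone, and the dose and time of treatment, are not given in the sources used here. A difference between the lines therefore cannot be told apart from a difference between 1 clone and the cells it was compared with. All 4 groups are n-Myc cells per the labels, and parental SH-EP cells were not analysed here.

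MAP kinases are switched on when a threonine and a tyrosine of their activation loop are phosphorylated, and the dual-specificity phosphatases (DUSPs) remove both phosphates. The typical members are often grouped by place and substrate. DUSP1, DUSP4 and DUSP5 are inducible nuclear enzymes, DUSP6 and DUSP7 are cytoplasmic and prefer ERK, and DUSP10 and DUSP16 prefer the stress kinases JNK and p38. DUSP14 is a small atypical member without the domain that docks on kinases. Sprouty proteins act further up and hold back the signal that passes from receptor tyrosine kinases to RAS and RAF. Many of these genes are themselves switched on by ERK activity and so close a feedback loop.

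The promoters are shown first because DUSP10 and DUSP16, relatives with the same preferred substrates, lay furthest apart between the lines, and because n-Myc with its partner MAX binds the E-box CACGTG. No window of DUSP4 or DUSP5 was searched, so nothing is said of their promoters. RefSeq promoter windows (GRCh38.p14), the 250 bases before each annotated start, were used for 8 of the 10 genes, in 11 windows. Each was searched on both strands for CACGTG (E-box), TGANTCA (AP-1), TGACGTCA (CRE) and CCGGAA (ETS), and for CCAAT, which was added after the sequences had been seen. Sequences are printed 5′ to 3′ on the gene's strand, up to the first annotated exon base, with matches in capitals. ATTGG is CCAAT read on the other strand.
DUSP10, chr1:221742177-221742339, minus strand: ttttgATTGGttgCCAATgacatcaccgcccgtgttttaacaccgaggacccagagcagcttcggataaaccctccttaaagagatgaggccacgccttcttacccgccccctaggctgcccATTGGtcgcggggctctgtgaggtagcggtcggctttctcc
DUSP16, chr12:12562864-12563113, minus strand: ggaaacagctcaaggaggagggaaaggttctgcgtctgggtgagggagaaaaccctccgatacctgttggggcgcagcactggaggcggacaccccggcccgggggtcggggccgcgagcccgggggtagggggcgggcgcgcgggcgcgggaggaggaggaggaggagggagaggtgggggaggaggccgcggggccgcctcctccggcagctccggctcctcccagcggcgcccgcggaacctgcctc
DUSP1, chr5:172771196-172771445, minus strand: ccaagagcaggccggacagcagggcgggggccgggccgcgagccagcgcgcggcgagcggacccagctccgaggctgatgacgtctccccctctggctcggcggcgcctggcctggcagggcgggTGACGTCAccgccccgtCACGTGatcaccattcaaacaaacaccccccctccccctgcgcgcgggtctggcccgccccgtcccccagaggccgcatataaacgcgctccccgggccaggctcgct

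Of the DUSP10 windows, the one shown above held 4 CCAAT matches, at 245, 237, 128 and 79 bases before the start. The last of these lies in the stretch not printed. The other DUSP10 window, chr1:221736901-221737150, is not printed and held none of the 5 motifs. CCAAT occurred in 32% of 35116 windows, and 4 or more copies in 0.874%, counted over whole windows with any exon stretch included. The DUSP16 window held none of the 5 motifs. DUSP1, whose line difference was among the smallest, had a CACGTG at 108 bases and a TGACGTCA at 125 bases before its start, and was the single gene of the 8 with either. These motifs occurred in 6.34% and 1.65% of all windows. SPRY2 had 1 CCGGAA at 142 bases before the start, a motif of 14.5% of windows, and DUSP6 had 1 CCAAT at 46 bases. The AP-1 motif, found in 6.57% of windows, was in none of the 11. A match is a string of letters and shows no binding.

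Libraries held 6614671 to 21511684 counts. The smallest was SPARK-ON lenalidomide replicate 3, and the next smallest had 14647340. Levels are given as CPM, the count relative to the scaled size of the library times 1000000. A count of 0 allows up to 0.143 to 0.441 CPM per library (3 counts), a limit that covers counting error only. All 10 genes passed the filter on low counts, and the lowest value of any of them was 1.09 CPM, for DUSP16 in 1 SPARK-ON library. Replicates within the SPARK-ON groups differed by a mean chi-square of 2.42 to 3.31 per gene, and control DMSO replicates 2 and 3 by 4.84. Control DMSO replicate 1 stood apart from the other 2 at 29.7 and 25.5, and the 2 control lenalidomide libraries differed by 14.9, so results without these libraries are given where a call or a value changed. MYCN, the n-Myc gene, was abundant in all groups, at 2420 to 2618 CPM in SPARK-ON cells with lenalidomide, 2186 to 2398 CPM in SPARK-ON cells with DMSO, 2330 to 2762 CPM in control cells with lenalidomide and 2089 to 2615 CPM in control cells with DMSO. In SPARK-ON cells the lenalidomide libraries lay above the DMSO libraries, as for 9.62% of all genes, and in control cells the treatments overlapped. These are RNA levels, and the amount of n-Myc protein was not measured here. Counts cannot tell an introduced copy from the native one.

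Markers of the mesenchymal state were present in both lines, all 8 of 8, and summed to 1487 to 1687 CPM in SPARK-ON libraries and 2763 to 2885 CPM in control libraries. These sums did not overlap, but single markers went both ways. VIM (501 to 576 against 1083 to 1361 CPM) and CD44 (484 to 560 against 1110 to 1196.5 CPM) were lower in SPARK-ON libraries. FN1 was higher (119 to 157 against 58.3 to 104 CPM), and PRRX1, NOTCH2, COL1A1, YAP1 and TWIST1 overlapped between the lines. Adrenergic markers summed to 5.0 to 8.28 CPM in SPARK-ON libraries and 6.40 to 8.73 CPM in control libraries, and PHOX2A, CHGA and ISL1 had no count in any library. Most of the sum was GATA3, at 4.74 to 6.90 against 6.26 to 8.73 CPM. HAND2 was higher in SPARK-ON cells in DMSO, at 0.840 to 1.33 against 0.0543 to 0.143 CPM (edgeR adjusted p = 0.0021). With lenalidomide it had 0 to 0.856 CPM, against 0 in control cells. Its control values lie near or under the limit that a count of 0 allows. The 10 markers of other cell types summed to 27.1 to 41.0 CPM in SPARK-ON libraries and 4.40 to 5.44 CPM in control libraries. Most of that was KRT8, a keratin of epithelial cells, at 23.2 to 33.9 CPM in SPARK-ON libraries and 2.74 to 3.41 CPM in control libraries. CD3E and MYOD1 had no count in any library. Some of these levels differ between the lines, and their part in the results was not tested. In bulk RNA, fewer cells that express a gene and less RNA per cell cannot be told apart.

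**Figure D1:**
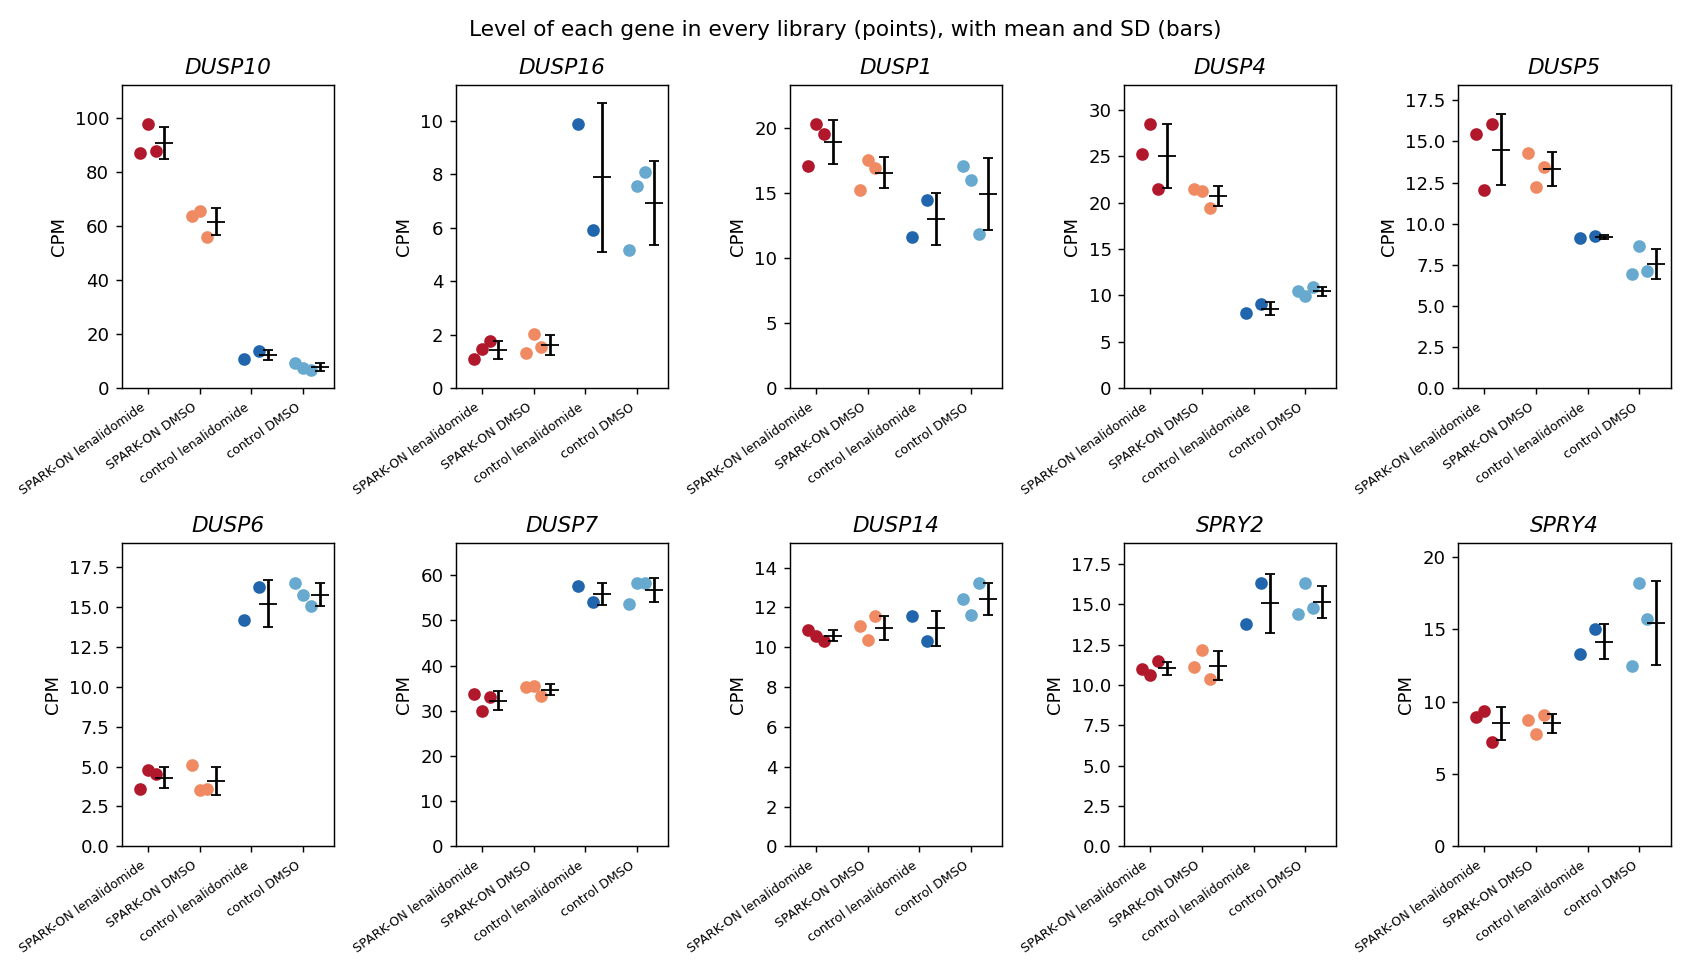
Level of each of the 10 genes in CPM (y axis, from 0) in every library (points), by group, with the mean and SD beside them as bars. DUSP10 sits between 55.9 and 97.7 CPM in the 6 SPARK-ON libraries and between 6.69 and 13.7 CPM in the 5 control libraries, whereas DUSP6, DUSP7, DUSP16, SPRY2 and SPRY4 lie lower in the SPARK-ON libraries.

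Between the lines the 10 genes did not move as one block. In DMSO, 3 were higher and 5 lower in SPARK-ON than in control cells, and 2 did not pass (edgeR's quasi-likelihood test, Benjamini-Hochberg adjusted p below 0.05 over 16056 genes). Of all genes tested, 41.6% passed in this comparison, 21.1% higher and 20.4% lower, so calls between the lines were common. With lenalidomide, 4 were higher, 5 lower and 1 did not pass, against 39.4% of all genes, 19.7% in each direction. The median log2 change of the 10 genes was -0.31 in DMSO and -0.25 with lenalidomide, against medians over all genes of 0.011 and 0.015. Of all genes, DESeq2 and limma-voom called 41.4% and 42.4% in DMSO, and 39.6% and 39% with lenalidomide. Of the 10, both called the same 8 genes in DMSO and the same 9 with lenalidomide. So did edgeR with only the 2 groups compared in the fit, where 40.1% of all genes passed in DMSO and 44.5% with lenalidomide. Groups that did not overlap were seen in DMSO for 3 of the 10 as higher and 6 as lower, against 26.3% and 24.6% of all genes, and with lenalidomide for 4 and 5, against 30.4% and 29.3%.

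DUSP10 (ENSG00000143507.18, chromosome 1, 221701424 to 221742176, minus strand, GRCh38) had the largest difference of the 10. It encodes a phosphatase that takes p38 and JNK as its main substrates. In DMSO its level was 63.8, 65.5 and 55.9 CPM in SPARK-ON cells, against 9.33, 7.56 and 6.69 CPM in control cells. Every SPARK-ON library lay far above every control library. DUSP10 was 7.86-fold higher in SPARK-ON cells (log2 2.97, SE 0.12, edgeR adjusted p = 1.45e-12), which placed it at rank 588 by size among the 3395 genes called higher. With lenalidomide its level was 87.1, 97.7 and 87.8 CPM in SPARK-ON cells, against 10.9 and 13.7 CPM in control cells. The difference there was 7.34-fold (log2 2.88, SE 0.14, edgeR adjusted p = 1.72e-11).

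DUSP16 (ENSG00000111266.9, chromosome 12, 12474210 to 12562383, minus strand), the relative of DUSP10 that also acts on JNK and p38, differed in the opposite direction. In DMSO it had 1.32, 2.05 and 1.53 CPM in SPARK-ON cells, against 5.16, 7.56 and 8.07 CPM in control cells. With lenalidomide it had 1.09, 1.47 and 1.76 CPM in SPARK-ON cells, against 9.86 and 5.91 CPM in control cells. The groups did not overlap under either treatment. DUSP16 was lower in SPARK-ON cells by a log2 change of -2.09 (SE 0.27, edgeR adjusted p = 4.82e-06) in DMSO and -2.50 (SE 0.31, adjusted p = 3.79e-06) with lenalidomide. Per exon length its levels in SPARK-ON cells, 0.252 CPM per kb with lenalidomide and 0.285 with DMSO, were the lowest of the 10 genes. Control libraries varied, at 7.88 ± 2.8 CPM (SD, n = 2) with lenalidomide and 6.93 ± 1.6 CPM (n = 3) with DMSO.

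The third typical phosphatase of this class, DUSP8, belongs to the list of further feedback genes and was lower as well, with log2 changes of -1.85 (SE 0.31, edgeR adjusted p = 0.000114) in DMSO and -2.33 (SE 0.35, adjusted p = 3.74e-05) with lenalidomide. Its mean level was 1.11 ± 0.85 CPM with lenalidomide and 1.36 ± 0.33 CPM with DMSO in SPARK-ON cells (SD, n = 3 each), against 6.35 ± 0.58 CPM (n = 2) and 4.86 ± 0.52 CPM (n = 3) in control cells. DUSP8 counts were 2 to 127 per library and those of its pseudogene DUSP8P5 were 4 to 36, and since the sources used here do not say how shared reads were assigned, the DUSP8 level is uncertain. Within the JNK and p38 class, then, DUSP10 was higher while DUSP16 and DUSP8 were lower in SPARK-ON cells.

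Of the inducible nuclear phosphatases, DUSP4 (ENSG00000120875.9, chromosome 8, 29333064 to 29350668, minus strand), which acts on ERK and JNK, was higher in SPARK-ON cells. Its level in DMSO was 21.5, 21.2 and 19.5 CPM in SPARK-ON cells, against 9.94 to 10.9 CPM in the 3 libraries of control cells. The lenalidomide values were 25.3, 28.4 and 21.5 CPM in SPARK-ON cells, against 8.09 and 9.05 CPM in control cells. The lines were separate under both treatments. DUSP4 thus differed by a log2 change of 0.99 (SE 0.12, edgeR adjusted p = 2.41e-06) in DMSO and 1.56 (SE 0.14, adjusted p = 8.06e-08) with lenalidomide, or 1.98-fold and 2.95-fold.

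DUSP5 (ENSG00000138166.6, chromosome 10, 110497838 to 110511544, plus strand), a nuclear phosphatase that is selective for ERK, was also higher. It had 14.3, 12.2 and 13.4 CPM in SPARK-ON cells with DMSO, against 6.95, 8.63 and 7.12 CPM in control cells with DMSO. In lenalidomide it stood at 15.4, 12 and 16 CPM in SPARK-ON cells, against 9.10 and 9.26 CPM in control cells. No control library reached the lowest SPARK-ON library. For DUSP5 the log2 change was 0.82 (SE 0.14, edgeR adjusted p = 0.000133) in DMSO and 0.64 (SE 0.16, adjusted p = 0.00378) with lenalidomide. Its pseudogenes DUSP5P1 and DUSP5P2 had at most 1 count in any library.

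DUSP1 (ENSG00000120129.6, chromosome 5, 172768090 to 172771195, minus strand), the immediate early phosphatase with the widest range of substrates, differed little. In DMSO it had 15.2, 17.6 and 17 CPM in SPARK-ON cells, against 17.1, 16 and 11.8 CPM in control cells. The groups overlapped, and the log2 change of 0.15 (95% interval -0.14 to 0.44, edgeR adjusted p = 0.419) did not pass. With lenalidomide it had 17.1, 20.3 and 19.6 CPM in SPARK-ON cells, against 11.6 and 14.5 CPM in control cells, a log2 change of 0.53 (SE 0.16, edgeR adjusted p = 0.0141). That call rested on single libraries. Without SPARK-ON lenalidomide replicate 2 the change was 0.47 (edgeR adjusted p = 0.0616), and without control lenalidomide replicate 1 it was 0.39 (adjusted p = 0.149).

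Both cytoplasmic ERK phosphatases were lower in SPARK-ON cells. DUSP6 (ENSG00000139318.8, chromosome 12, 89347232 to 89353271, minus strand), the ERK-induced phosphatase often read as a gauge of ERK output, had 5.10, 3.56 and 3.58 CPM in SPARK-ON cells with DMSO, against 16.5, 15.7 and 15.1 CPM in control cells with DMSO. Under lenalidomide it had 3.57, 4.77 and 4.56 CPM in SPARK-ON cells, against 14.2 and 16.2 CPM in control cells. All SPARK-ON libraries lay under all control libraries by a wide gap. DUSP6 differed by -1.95 on the log2 scale (SE 0.16, edgeR adjusted p = 1.79e-08) in DMSO and -1.84 (SE 0.18, adjusted p = 2.39e-07) with lenalidomide. The antisense gene AC024909.2 shares 1875 exon bases with DUSP6. It had 0 to 9 counts per library against 31 to 315 for DUSP6, and since no strand setting is stated, reads from the 2 strands may not have been kept apart.

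DUSP7 (ENSG00000164086.10, chromosome 3, 52048919 to 52056550, minus strand), the other cytoplasmic ERK phosphatase among the 10, was lower too, and per exon length it was the most abundant of the 10 in control cells, at 9.90 CPM per kb with lenalidomide. In DMSO it had 35.3, 35.4 and 33.4 CPM in SPARK-ON cells, against 53.7, 58.2 and 58.3 CPM in control cells. Under lenalidomide the values were 33.8, 30.0 and 33.1 CPM in SPARK-ON cells, against 57.7 and 54.2 CPM in control cells. The spread within each group was small beside the gap between them. For DUSP7 the log2 change was -0.71 (SE 0.083, edgeR adjusted p = 1.59e-06) in DMSO and -0.79 (SE 0.094, adjusted p = 2.18e-06) with lenalidomide.

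DUSP9, the remaining cytoplasmic ERK phosphatase, went the other way at a very low level. Its mean was 2.79 ± 0.80 CPM with lenalidomide and 1.49 ± 0.68 CPM with DMSO in SPARK-ON cells (SD, n = 3 each), against 0.213 ± 0.30 CPM (n = 2) and 0.192 ± 0.064 CPM (n = 3) in control cells. It was higher in SPARK-ON cells in DMSO (log2 2.87, SE 0.65, edgeR adjusted p = 0.00153) and with lenalidomide (log2 3.55, SE 0.73, adjusted p = 0.000759). Control libraries held 0 to 8 counts of DUSP9, and its DMSO values are named here after they had been seen.

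DUSP14 (ENSG00000276023.5, chromosome 17, 37489831 to 37513501, plus strand), the atypical member, showed no difference that passed. It had 11, 10.4 and 11.6 CPM in SPARK-ON cells with DMSO, against 12.4, 11.6 and 13.2 CPM in control cells with DMSO. With lenalidomide it had 10.8, 10.6 and 10.3 CPM in SPARK-ON cells, against 11.6 and 10.3 CPM in control cells. The values of all 11 libraries lay close together. In DMSO the SPARK-ON libraries, at most 11.55 CPM, lay just under the control libraries, at least 11.60 CPM. With lenalidomide the lines overlapped. The log2 change was -0.18 (95% interval -0.43 to 0.07, edgeR adjusted p = 0.254) in DMSO and -0.04 (95% interval -0.34 to 0.25, adjusted p = 0.831) with lenalidomide, so a change as large as that of DUSP7 lies outside both intervals.

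Both Sprouty genes were lower in SPARK-ON cells. SPRY4 (ENSG00000187678.10, chromosome 5, 142310427 to 142326455, minus strand), which restrains signalling between receptors and RAS, had 8.70, 7.79 and 9.05 CPM in SPARK-ON cells with DMSO, against 12.4, 18.2 and 15.7 CPM in control cells with DMSO. In lenalidomide it stood at 8.97, 9.36 and 7.21 CPM in SPARK-ON cells, against 13.3 and 15 CPM in control cells. No SPARK-ON library reached the lowest control library. The log2 change was -0.85 (SE 0.15, edgeR adjusted p = 0.000148) in DMSO and -0.71 (SE 0.17, adjusted p = 0.00287) with lenalidomide.

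SPRY2 (ENSG00000136158.12, chromosome 13, 80335976 to 80340951, minus strand), which can both restrain RAS signalling and protect the EGF receptor from degradation, differed less. It had 11.1, 12.1 and 10.4 CPM in SPARK-ON cells with DMSO, against 14.4, 16.3 and 14.8 CPM in control cells with DMSO. With lenalidomide it had 11, 10.6 and 11.5 CPM in SPARK-ON cells, against 13.8 and 16.3 CPM in control cells. The lines did not overlap under either treatment. The log2 change was -0.44 (SE 0.12, edgeR adjusted p = 0.00691) in DMSO and -0.46 (SE 0.14, adjusted p = 0.0126) with lenalidomide. The second call did not hold without control lenalidomide replicate 2 (-0.33, adjusted p = 0.154) or when libraries were scaled by their size alone (-0.35, adjusted p = 0.0509).

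**Figure D2:**
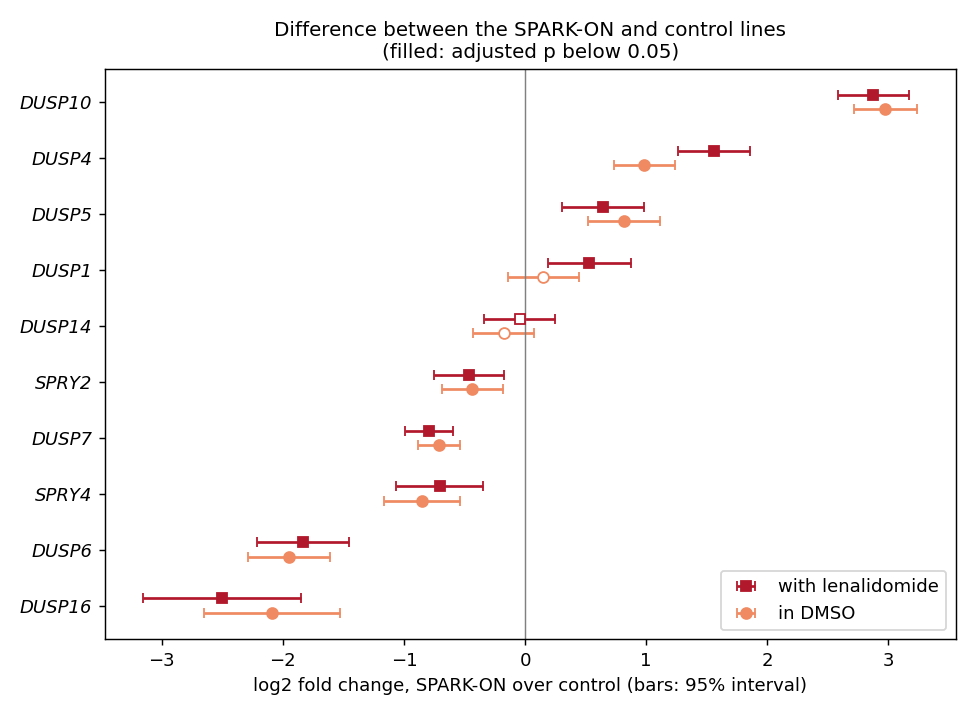
Log2 fold change of each gene, SPARK-ON over control (x axis), with its 95% interval, with lenalidomide (squares) and in DMSO (circles); filled symbols have an adjusted p below 0.05. DUSP10, DUSP4 and DUSP5 lie to the right of 0 and SPRY2, DUSP7, SPRY4, DUSP6 and DUSP16 to the left under both treatments, from 2.97 for DUSP10 to -2.50 for DUSP16.

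To set the phosphatases against each other, levels were divided by exon length (CPM per kb) and summed over the 10 typical MAP kinase phosphatases, DUSP2, DUSP8 and DUSP9 included. This grouping by class was chosen after the values had been seen, and carries no test. The sum was 61.6 ± 2.1 CPM per kb with lenalidomide and 50.5 ± 1.2 with DMSO in SPARK-ON cells (SD, n = 3 each), against 34.7 ± 2.4 (n = 2) and 33.9 ± 1.1 (n = 3) in control cells. Without DUSP10 the sums were nearly level, at 30.4 ± 0.30 and 29.3 ± 0.58 CPM per kb in SPARK-ON cells with lenalidomide and DMSO, against 30.4 ± 1.7 and 31.3 ± 0.85 in control cells. DUSP10 made up 50.6 ± 1.6% of the sum with lenalidomide and 41.9 ± 2.5% with DMSO in SPARK-ON cells, against 12.2 ± 1.1% and 7.93 ± 1.2% in control cells.

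By class, the cytoplasmic ERK phosphatases summed to 7.65 ± 0.36 CPM per kb with lenalidomide and 7.56 ± 0.57 with DMSO in SPARK-ON cells, against 13.3 ± 0.012 and 13.5 ± 0.32 in control cells. The inducible nuclear class stood at 22.3 ± 0.54 and 21.2 ± 1.1 CPM per kb in SPARK-ON cells, against 14.4 ± 2.1 and 15.5 ± 1.2 in control cells. For the JNK and p38 class the sums were 31.7 ± 2.0 and 21.8 ± 1.8 CPM per kb in SPARK-ON cells, against 6.99 ± 0.31 and 4.96 ± 0.094 in control cells. That sum was nearly all DUSP10 in SPARK-ON cells, at 31.2 and 21.2 CPM per kb, against 4.23 and 2.70 in control cells. DUSP8 and DUSP16, the rest of the class, ran the other way, at 0.492 ± 0.13 and 0.579 ± 0.14 CPM per kb in SPARK-ON cells with lenalidomide and DMSO, against 2.75 ± 0.36 and 2.26 ± 0.38 in control cells.

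**Figure D3:**
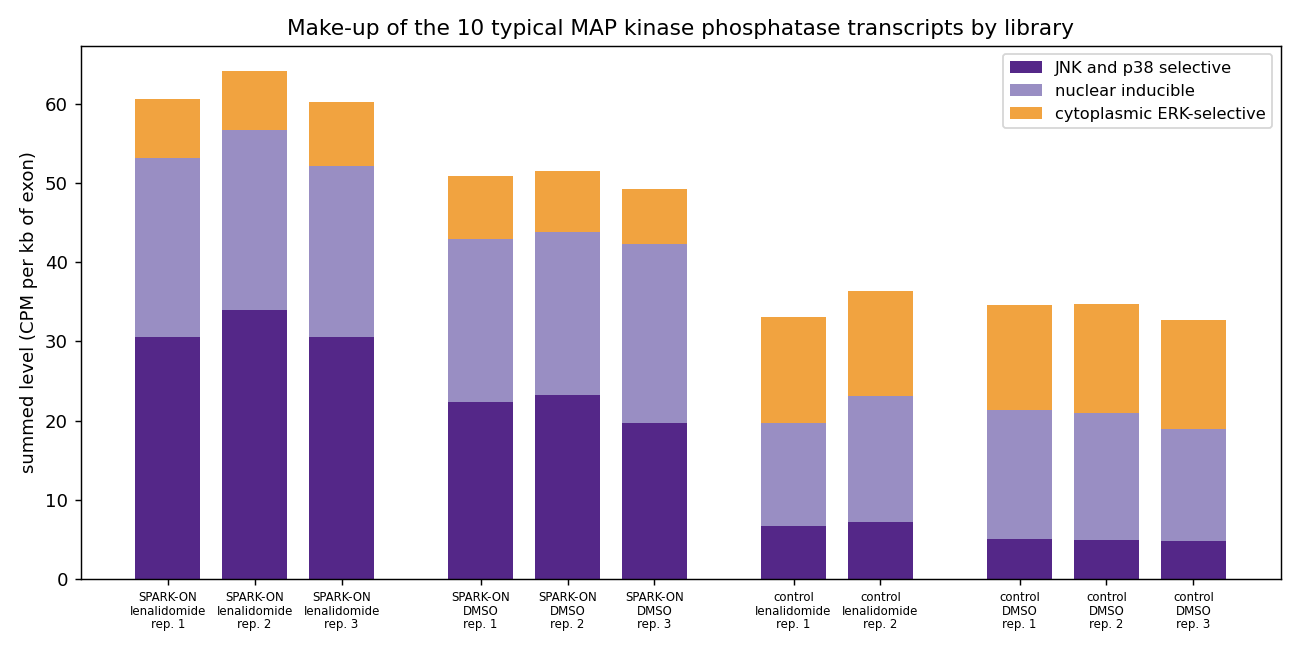
Summed level of the 10 typical MAP kinase phosphatase transcripts (y axis, CPM per kb of exon, from 0) in each library, split by class. The JNK and p38 class averages 31.7 and 21.8 CPM per kb in SPARK-ON cells with lenalidomide and DMSO, against 6.99 and 4.96 in control cells, of which DUSP10 alone is 31.2 and 21.2, against 4.23 and 2.70, and the cytoplasmic ERK class averages 7.65 and 7.56, against 13.3 and 13.5.

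Lenalidomide against DMSO was the contrast from which the DUSP10 response had been chosen, and it is given as values. In SPARK-ON cells DUSP10 had 87.1, 97.7 and 87.8 CPM with lenalidomide, against 63.8, 65.5 and 55.9 CPM with DMSO. In control cells it had 10.9 and 13.7 CPM with lenalidomide, against 9.33, 7.56 and 6.69 CPM with DMSO. Within each line all lenalidomide libraries lay above all DMSO libraries. The log2 change was 0.56 (SE 0.11) in SPARK-ON cells and 0.66 (SE 0.15) in the control line, or 1.47-fold and 1.58-fold, from starting levels that were 7.86-fold apart. The response in SPARK-ON minus that in control cells was -0.10 on the log2 scale (SE 0.18, 95% interval -0.48 to 0.28). The 4 groups of DUSP10 stood in the order SPARK-ON lenalidomide, SPARK-ON DMSO, control lenalidomide, control DMSO with no overlap between neighbours.

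The DUSP10 values depended on the libraries kept in the control line. Its change in control cells was 0.81 without control lenalidomide replicate 1, 0.47 without control lenalidomide replicate 2 and 0.80 without control DMSO replicate 1. Over all alternatives it ranged from 0.47 to 0.81 in control cells and from 0.49 to 0.60 in SPARK-ON cells, where it was 0.58 without SPARK-ON lenalidomide replicate 3, the shallowest library. The response in SPARK-ON minus that in control cells ranged from -0.25 to 0.08 and so changed sign.

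Over all genes, edgeR's quasi-likelihood test for lenalidomide called 0.0685% in SPARK-ON cells (11 genes, all higher) and 0.0436% in control cells (7 genes; 0.0374% higher and 0.00623% lower). With only the groups compared in the fit, edgeR called 2.6% of all genes (381) in the SPARK-ON line and 0 in the control line. Calls of the 10 genes in these comparisons carry no support, because the list was drawn up from the same contrast. Groups did not overlap for 1 of the 10 as higher and 0 as lower in SPARK-ON cells, beside 9.62% and 8.17% of all genes, and for 2 as higher and 2 as lower in control cells, beside 7.69% and 6.86%. DUSP10 was higher without overlap in both lines, as were 1.29% of all genes (207), and nothing is read from this because the response was known when the list was made.

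The other 9 genes had smaller lenalidomide values. DUSP4 had 25.3, 28.4 and 21.5 CPM with lenalidomide in SPARK-ON cells, against 21.5, 21.2 and 19.5 CPM with DMSO, and the 2 groups overlapped at 21.5 CPM. In control cells it had 8.09 and 9.05 CPM with lenalidomide, against 9.94 to 10.9 CPM with DMSO, without overlap and in the opposite direction. The log2 change was 0.29 (SE 0.12) in SPARK-ON cells and -0.28 (SE 0.14) in the control line, and their difference of 0.57 (SE 0.18) was the largest of the 10. Over all genes, 0 of 16056 passed for the difference in response by edgeR or limma-voom, DESeq2 called 3, none of them among the 10, and 4.17% (669) had an unadjusted p below 0.05 by edgeR.

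DUSP1 showed the same pattern on a smaller scale, with 0.19 (SE 0.14) in SPARK-ON cells and -0.19 (SE 0.16) in the control line, and its groups overlapped in both lines. DUSP5 had 0.11 (SE 0.14) in SPARK-ON cells and 0.28 (SE 0.16) in the control line, where 9.10 and 9.26 CPM with lenalidomide stood above 6.95, 8.63 and 7.12 CPM with DMSO. DUSP6, DUSP7, DUSP14, SPRY2 and SPRY4 had log2 changes of -0.11 to 0.06 in SPARK-ON cells and -0.19 to -0.0047 in control cells. DUSP16 had -0.23 (SE 0.34) in SPARK-ON cells and 0.18 (SE 0.25) in the control line, and the control value was -0.23 without control lenalidomide replicate 1. Lenalidomide and DMSO libraries of a line overlapped for all 9 genes in SPARK-ON cells, and for all but DUSP4, DUSP5 and DUSP14 in control cells. The median over the 10 genes was 0.044 in SPARK-ON cells and -0.036 in the control line, against 0.0065 and 0 over all genes.

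**Figure D4:**
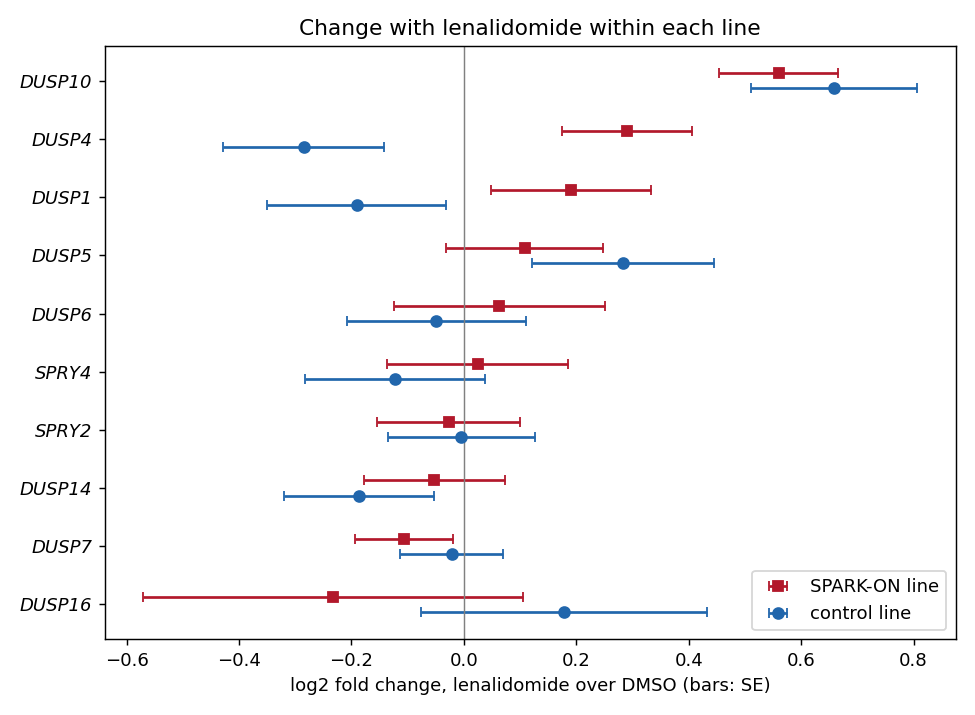
Log2 fold change with lenalidomide over DMSO (x axis) with its standard error, in the SPARK-ON line (squares) and the control line (circles). DUSP10 lies at 0.56 and 0.66, DUSP4 at 0.29 and -0.28, and the error bars of DUSP6, SPRY4, SPRY2 and DUSP16 span 0 in both lines.

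Genes around the 10 were followed in 7 lists, and each count of calls between the lines stands beside the share of all genes called, which was 41.6% in DMSO (21.1% higher, 20.4% lower) and 39.4% with lenalidomide (19.7% in each direction). Among further typical phosphatases, STYXL1 and the SPRY and SPRED genes, 2 of 8 tested were higher and 3 lower in SPARK-ON cells with DMSO, or 62.5% in all. STYXL1, a phosphatase relative without catalytic activity, was higher (log2 0.80, SE 0.12, edgeR adjusted p = 2.93e-05), and SPRED3, a membrane-bound relative of the Sprouty proteins, was lower (-0.83, adjusted p = 0.000858). With lenalidomide 2 were higher and 4 lower (75%), led by DUSP8, STYXL1 and DUSP9. SPRY3 did not pass the filter on low counts.

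The atypical phosphatases and slingshot phosphatases had 4 of 11 tested higher and 2 lower in DMSO, and 5 higher and 1 lower with lenalidomide, 54.5% under either treatment. DUSP3, which acts on ERK and JNK, rose by 0.54 (edgeR adjusted p = 7.16e-06) and SSH1, which activates the actin-severing protein cofilin, by 0.71 (adjusted p = 2.90e-05) in DMSO. DUSP15 was called as higher from very few reads. It had 0.606 to 1.47 CPM with lenalidomide and 0.396 to 0.960 CPM with DMSO in SPARK-ON cells, against 0 in both control lenalidomide libraries and 0 to 0.0595 CPM with DMSO in control cells, under the limit that a count of 0 allows. With lenalidomide the count of calls in this list was 3 without control lenalidomide replicate 2.

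Among genes that ERK activity is known to switch on, 3 of 17 tested were higher and 8 lower in SPARK-ON cells with DMSO, with a median log2 change of -0.32. These calls made up 64.7% of the list, beside 41.6% of all genes, with 21.1% higher and 20.4% lower. PHLDA1, a pleckstrin homology domain protein induced by ERK, had 17.5, 15.4 and 15.3 CPM in SPARK-ON cells with DMSO, against 103, 104 and 96.6 CPM in control cells with DMSO. The gap far exceeded the spread within each line (log2 -2.66, edgeR adjusted p = 4.92e-14). CCND1, the gene of cyclin D1, fell by 0.71 (adjusted p = 1.14e-06) and the ephrin receptor gene EPHA4 by 1.73 (adjusted p = 1.30e-06). With lenalidomide 4 were higher and 9 lower (76.5%, beside 39.4% of all genes, 19.7% in each direction), with a median of -0.35, and the same 3 genes led. EMP1, an epithelial membrane protein gene on the same list, was higher by 1.37 (adjusted p = 1.62e-06) in DMSO, and is named here after its value had been seen.

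Growth factor ligand genes had 3 of 13 tested higher and 5 lower under both treatments, or 61.5%, beside 41.6% of all genes in DMSO and 39.4% with lenalidomide. TGFA, a ligand of the EGF receptor, had 12.8, 9.96 and 11.3 CPM in SPARK-ON cells with DMSO, against 84.7, 96.9 and 87.6 CPM in control cells with DMSO. The libraries of the lines lay far apart (log2 -2.98, edgeR adjusted p = 1.93e-13). VEGFA, the main growth factor of blood vessels, was lower as well (-1.66, adjusted p = 2.73e-12), and KITLG, the ligand of KIT, was higher (1.29, adjusted p = 2.43e-08). Receptor genes split evenly, with 3 of 11 higher and 3 lower (54.5%) under both treatments, among them PDGFRB (1.99, adjusted p = 2.13e-09) and MET (0.80, adjusted p = 3.18e-06) as higher and FGFR1 (-0.60, adjusted p = 5.74e-06) as lower in DMSO. PDGFRA was among the 3 leading receptors with lenalidomide, at -3.09 (adjusted p = 4.18e-05).

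The kinases and adaptors between receptor and ERK had 4 of 22 higher and 4 lower under both treatments, and 14 did not pass. The share called, 36.4%, was under that of all genes, 41.6% in DMSO and 39.4% with lenalidomide. In DMSO the adaptor gene SHC1 was higher by 0.80 (edgeR adjusted p = 2.36e-07), while the ERK kinase gene MAP2K2 was lower by a log2 change of -0.72 (adjusted p = 1.19e-06) and the ERK-activated kinase gene RPS6KA3 of -0.69 (adjusted p = 1.64e-06). In the JNK, p38 and ERK5 cascades 8 of 20 were higher and 2 lower in DMSO (50%), and 7 and 2 with lenalidomide (45%), beside the same shares of all genes. MAP2K3, a kinase that activates p38, was higher by 0.91 (adjusted p = 9.66e-07), MAPK12, a p38 isoform, by 0.73 (adjusted p = 3.71e-05), and MAP3K4, an upstream kinase, was lower (-0.39, adjusted p = 0.000399) in DMSO. MAP2K6, the other main p38 kinase, was among the 3 leading genes with lenalidomide (1.13, adjusted p = 0.000252). Without SPARK-ON DMSO replicate 1 the calls of this list in DMSO numbered 6. For lenalidomide over DMSO, edgeR called 0 of the 100 genes of these 7 lists in either line, and 14 in SPARK-ON cells and 6 in the control line had an unadjusted p below 0.05, beside 5.36% and 4.82% of all genes. DESeq2 called KCNN4 and PDGFRB in control cells and 0 genes in SPARK-ON cells, and limma-voom called 0 in both.

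**Figure D5:**
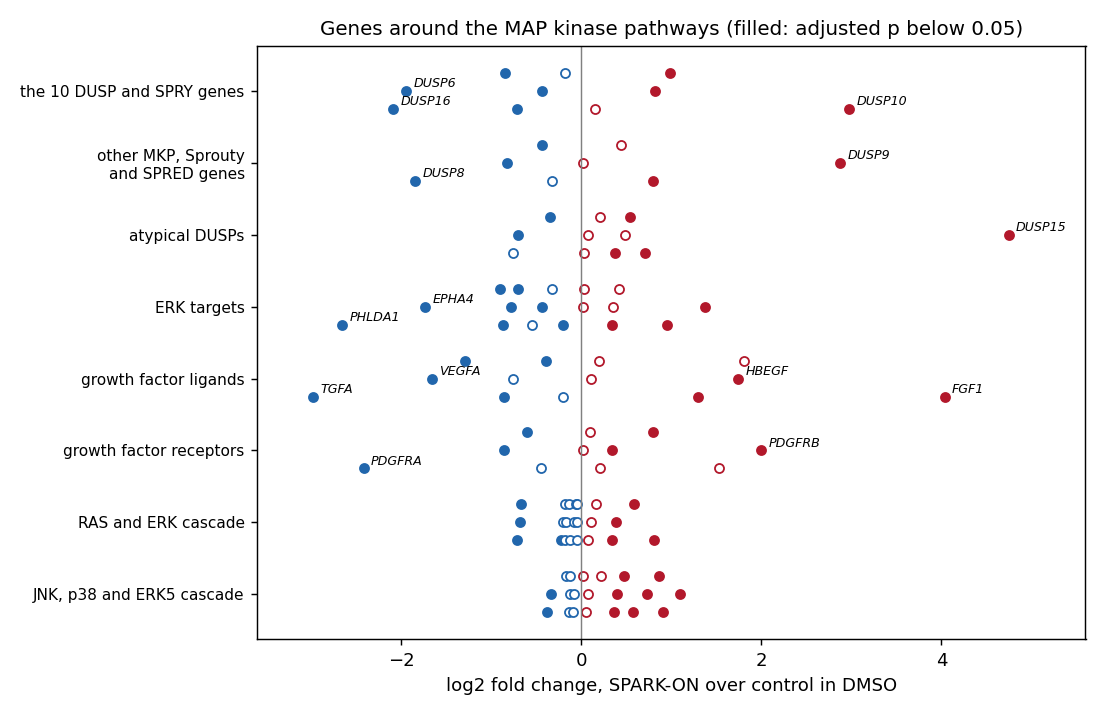
Log2 fold change in DMSO, SPARK-ON over control (x axis), of the 10 genes and of 7 lists of genes around the MAP kinase pathways (rows); filled points have an adjusted p below 0.05, red points lie above 0 and blue points below. Changes run both ways in every list, from -2.98 for TGFA to 4.03 for FGF1 among the ligands. The DUSP15 value rests on control libraries with at most 1 count. FGF1 had 0.0543 to 0.297 CPM in control cells with DMSO, near the limit that a count of 0 allows.

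The genes whose levels followed DUSP10 most closely were looked for among 10638 genes with a mean of at least 5 CPM. Likeness was the root mean square difference between log2(CPM + 0.5) profiles over the 11 libraries, each centred on its own mean. TGM2, a protein crosslinking enzyme, was nearest at 0.188, followed by the export pump gene ABCC3 (0.211), the tubulin gene TUBA4A (0.239), TFPI, an inhibitor of blood clotting (0.257), and TBC1D2, a regulator of RAB GTPases (0.261). TGM2 averaged 41.4 CPM with lenalidomide and 31.3 CPM with DMSO in SPARK-ON cells, against 5.05 and 3.74 CPM in control cells. ABCC3 averaged 208 and 147 CPM in SPARK-ON cells, against 24.8 and 19.5 CPM in control cells. The likeness covers the difference between the lines more than the lenalidomide values. Log2 changes with lenalidomide in SPARK-ON cells were 0.40 for TGM2, 0.50 for ABCC3, 0.25 for TUBA4A, 0.09 for TFPI and 0.32 for TBC1D2, beside 0.56 for DUSP10. In control cells they were 0.46, 0.34, 0.45, 0.31 and 0.41 in the same order of genes, beside 0.66 for DUSP10. Between the lines in DMSO these 5 genes had log2 changes of 2.91 to 3.48, beside 2.97 for DUSP10. All profiles come from the same 11 libraries and the same scaling, so the likeness is a description.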

How the data were processed

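RNA was counted per gene by the authors, and the deposited values are raw counts in whole numbers, 1 table for the series, without normalization. The submitters' processing notes name FastQC, fastp, HTSeq, edgeR and hg38. Aligner, versions, annotation release and strand setting are not given in the sources used here. Of the table's columns, 11 carry the description of a labelled sample and were used, in 4 groups, and 3 match none and were left out. Baseline cells were thus not analysed here, and 2 planned comparisons with them were not made.

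The 10 genes, the lists around them and the tests were chosen with earlier results of these data known. Symbols came from a table of gene names that covered 61415 identifiers. Genes were kept by filterByExpr (minimum count 10), which left 16056, and scaled by TMM. The 4 groups were fitted in one way with glmQLFit, leaving 7 residual degrees of freedom, and tested two-sided with glmQLFTest (R 4.3.3, edgeR 4.0.16). P-values were Benjamini-Hochberg adjusted over all genes, and 0.05 was the threshold. The spread between libraries, as edgeR's common coefficient of variation, was 9.40% in the fit of all 4 groups. With only the lenalidomide and DMSO groups of a line in the fit, it was 4.71% in the SPARK-ON line and 12.9% in the control line. CPM are counts over library size after TMM scaling, times 1000000, and CPM per kb divides them by the summed exon length in GENCODE 29 (GRCh38), matched without identifier versions. SE is the log2 change over the root of F, and SD is over libraries. The contrast between the lines in DMSO was tried on simulated counts with far fewer changed genes than were called in these data. Lenalidomide changes were not simulated.

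Named genes of a list are up to 3 called genes with the smallest p, and the 5 genes most like DUSP10. FGF1, EMP1, KCNN4, and DUSP8 and DUSP9 where they fall outside this rule, were chosen after their values were seen. Alternatives were RLE factors, library size alone, no filter, 1 CPM in 2 libraries, limma-voom (limma 3.58.1), DESeq2 1.42.0, a fit of the compared groups only, a replicate block, a threshold of 0.01 and omission of each library. Plots were made in Python 3.11.15 (matplotlib 3.10.9). The labels do not say that replicates are separate cultures, so p-values measure the spread between these libraries, which may be technical.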

Additional observations from a re-analysis of the deposited data

How the results depend on the processing

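The 8 genes called between the lines in DMSO were called in each alternative run. At the threshold of 0.05, these runs called 20% to 44.3% of all genes in DMSO, and 18.8% to 46.4% with lenalidomide. With lenalidomide, the DUSP1 call was lost at a threshold of 0.01 and without either of 2 libraries, and the SPRY2 call at 0.01, with library size alone and without 1 library. DUSP14, not called there, reversed sign, to 0.0618 with library size alone and within -0.13 to 0.038 on leaving out each library. For lenalidomide over DMSO the counts of calls among the 10 genes carry no support, since the list was drawn up from the DUSP10 response. They were 0 in both lines by edgeR, where 2 and 1 had an unadjusted p below 0.05, beside 5.36% and 4.82% of all genes. The number was 1 (DUSP10) in SPARK-ON cells and 1 (DUSP10) in the control line with no filter and with DESeq2. Over all genes, the calls in the 2 lines were 35 and 27 of 33507 with no filter. With DESeq2 they were 50 and 24 of 16056. Among the 10 genes the number was 1 in SPARK-ON cells with limma-voom, beside 0.0872% of all genes, and with only the groups compared, beside 2.6%. Leaving out each library gave 0 to 1 in both lines, beside at most 0.421% of all genes in SPARK-ON cells and 0.132% in the control line. The cause was not tested.

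In the fit with a replicate block, the 10 genes had 8 calls between the lines in DMSO, beside 37.9% of all genes. They had 9 with lenalidomide, beside 35.2%, and 0 for lenalidomide over DMSO in either line. These counts for the 10 genes were the same without the block. Calls over all genes for lenalidomide were 2 in SPARK-ON cells and 1 in the control line with the block. Same-numbered libraries did not deviate together, with r across genes of -0.29 to 0.021 over 10 pairs, so the numbers were not taken to pair them. The difference in response has no fit with only the groups compared, since it uses all 4. In other lists, 14 counts of calls moved by over 1.5 times and 679 did not. Among lenalidomide values of the 10 genes, 10 moved by more than the replicate spread and 550 did not. With 2 control lenalidomide libraries, each decides much of a control value.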
